A study of Mus musculus with 9 samples.

Results

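YAP and TAZ, the TEAD transcription factors and a set of their direct target genes were followed in 4T1 mammary tumors treated with the focal adhesion kinase (FAK) inhibitor BI 853520, abbreviated BI. The 10 genes were taken by their Entrez identifiers from the count table, which lists 18755 genes: Yap1 and Wwtr1 (the gene of TAZ), Tead1 and Tead4, and the targets Ccn1, Ccn2, Ankrd1, Amotl2, Lats2 and Ajuba. All 10 were found and all 10 passed the filter on low counts, along with 13966 genes in total. The tumors grew from 1000000 cells of the mouse metastatic breast cancer line 4T1, injected into mammary fat pad 9 of female BALB/c mice aged 6 to 10 weeks. From day 15 after injection, mice received 50 mg/kg of BI or the vehicle 0.5% Natrosol, in which the inhibitor is dissolved, for 5 days. Tumor RNA was sequenced from 3 vehicle-treated mice (replicates 1 to 3) and 6 BI-treated mice (replicates 4 to 9), 1 library per tumor. The grafts all come from 1 cell line, no other untreated or dosed group was sequenced, and the study kept tumors on the basis of their RNA quality.

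YAP and TAZ are transcriptional coactivators that cannot bind DNA by themselves and act mainly through the TEAD factors. In the Hippo pathway the MST kinases activate the LATS kinases, which phosphorylate YAP and TAZ and hold them in the cytoplasm. Adhesion to a stiff matrix, actin tension and signaling through FAK and Src instead favor the entry of YAP and TAZ into the nucleus. Several YAP targets restrain YAP and TAZ in return, among them LATS2 itself and the angiomotin AMOTL2. As the coactivators are controlled mostly by phosphorylation, place in the cell and stability, the RNA levels given here measure transcripts and not YAP or TAZ activity.

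Promoters of these genes are shown because TEAD factors recognise the MCAT element, whose core is GGAATG. RefSeq start sites on GRCm38 gave windows of 300 bases (250 before and 50 after the start) for 7 of the 10 genes, and more than 1 window for Wwtr1. The stretch printed below for each gene matched the mm9 genome exactly and only once. The full windows were not matched to mm9. The printed stretch holds the match in capitals, GGAATG on the strand of the gene or its reverse complement CATTCC, with 12 bases on each side. Each stretch is written 5′ to 3′ on the strand of the gene, with coordinates on mm9.
Ankrd1, chr19:36194440-36194556, minus strand: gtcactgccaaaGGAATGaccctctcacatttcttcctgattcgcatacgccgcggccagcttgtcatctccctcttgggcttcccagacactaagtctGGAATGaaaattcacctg
Amotl2, chr9:102620057-102620086, plus strand: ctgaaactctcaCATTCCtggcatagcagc
Ccn1, chr3:145313035-145313064, minus strand: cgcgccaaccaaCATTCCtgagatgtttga
Ajuba, chr14:55196645-55196696, minus strand: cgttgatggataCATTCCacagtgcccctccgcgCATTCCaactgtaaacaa
Lats2, chr14:58364939-58364968, minus strand: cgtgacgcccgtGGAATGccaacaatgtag
Yap1, chr9:8004720-8004749, minus strand: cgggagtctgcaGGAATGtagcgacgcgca
Wwtr1, chr3:57379951-57379980, minus strand: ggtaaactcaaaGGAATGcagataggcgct

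GGAATG on either strand occurred in at least 1 window of all 7 genes, against 14.66% of all 32851 promoter windows and 16.58% of the 27025 genes with at least 1 window. Among genes with a window in lists described below, it was in 8 of 21 other Hippo pathway genes and 3 of 11 further YAP signature genes. It was in 5 of 10 targets of serum response factor, 3 of 6 skeletal muscle markers, 2 of 9 immediate early genes and 0 of 8 proliferation markers. Ankrd1 and Ajuba each held 2 matches. Counted from the start site, the first base lay at -210 and -123 in Ankrd1, -186 and -164 in Ajuba, -65 in Amotl2, -103 in Ccn1, -141 in Yap1 and -136 in Wwtr1, and at 5 bases past the start in Lats2. In a further window of Wwtr1 the first base lay at -170. In the GENCODE annotation of mm9 the printed stretches of Amotl2 and Lats2 lie in an exon of their own gene and the other 5 lie in no gene. The AP-1 site TGANTCA was in 0 of the 7 genes (8.973% of all genes with a window). The CArG box of serum response factor was also in 0 (1.806% of all genes with a window). A match shows only that these letters are present. Among the 7 genes with a window, Wwtr1, which was not called below, carried it as well as Ankrd1.

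Total counts per tumor ranged from 16931607 to 33850245, and the deepest library was vehicle replicate 3. Levels are given as CPM (counts scaled to library size) after TMM normalization, which also corrects for composition, or per kilobase of the deposited gene length (RPKM) where genes are compared with each other. Changes are log2 fold changes of BI over vehicle from edgeR's quasi-likelihood test, and a gene was called when its Benjamini-Hochberg adjusted p over all genes tested was at most 0.05. Among the markers of tumor epithelium, Krt8 and Krt18 stood at a mean of 478 and 579 CPM in vehicle-treated tumors and Cdh1 at 19.2 CPM, whereas the group means of Epcam, Krt14, Krt7, Cldn4 and Cldn7 were at most 4.42 CPM. Krt18 fell by 0.50 (SE 0.11, adjusted p = 0.00636) and Krt8 by 0.28 (SE 0.09, adjusted p = 0.0444). The other 6 were not called, and the 8 markers had no common direction, 4 being fitted above 0: Epcam at 1.06 (adjusted p = 0.0987), Krt7 at 0.59, Cdh1 at 0.16 and Cldn7 at 0.11. Krt14 was fitted at -0.85 (adjusted p = 0.329, edgeR) and Cldn4 at -0.67 (adjusted p = 0.0939, edgeR). For Cldn4 every BI-treated tumor lay below every vehicle-treated tumor. Of 8 leukocyte markers, 6 rose and 1 fell, and their summed level was 1092 to 1219 CPM in vehicle-treated and 1598 to 1878 CPM in BI-treated tumors. Of all genes tested, 14.1% were called lower and 14.6% higher. In such bulk samples, fewer cells of a type and less RNA per cell cannot be told apart.

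Of the 10 genes, 8 fell under BI and 0 rose, beside 14.1% of all genes tested that fell and 14.6% that rose. The median log2 fold change of the 10 was -0.46, and that of all genes tested was -0.00371. Ankrd1 and Amotl2 fell 3.2- and 2.94-fold and stood far from the rest. Tead4, Ajuba and Ccn1 fell to 63.1% to 65.4% of the vehicle level, and Tead1, Yap1 and Lats2 to 80.3% to 82.8%. Wwtr1 and Ccn2 were not called. All 8 genes that fell were highest, among the controls, in vehicle replicate 3, which was also the deepest library; the part of its depth was not tested. For 7 genes every BI-treated tumor lay below every vehicle-treated tumor, as was the case for 14% of all genes tested. Under the cutoffs of the study, an unadjusted p and a limit on the fold change, 5 of the 10 fell, against 3.57% of all genes tested, and 0 rose, against 9.59%.

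**Figure D1:**
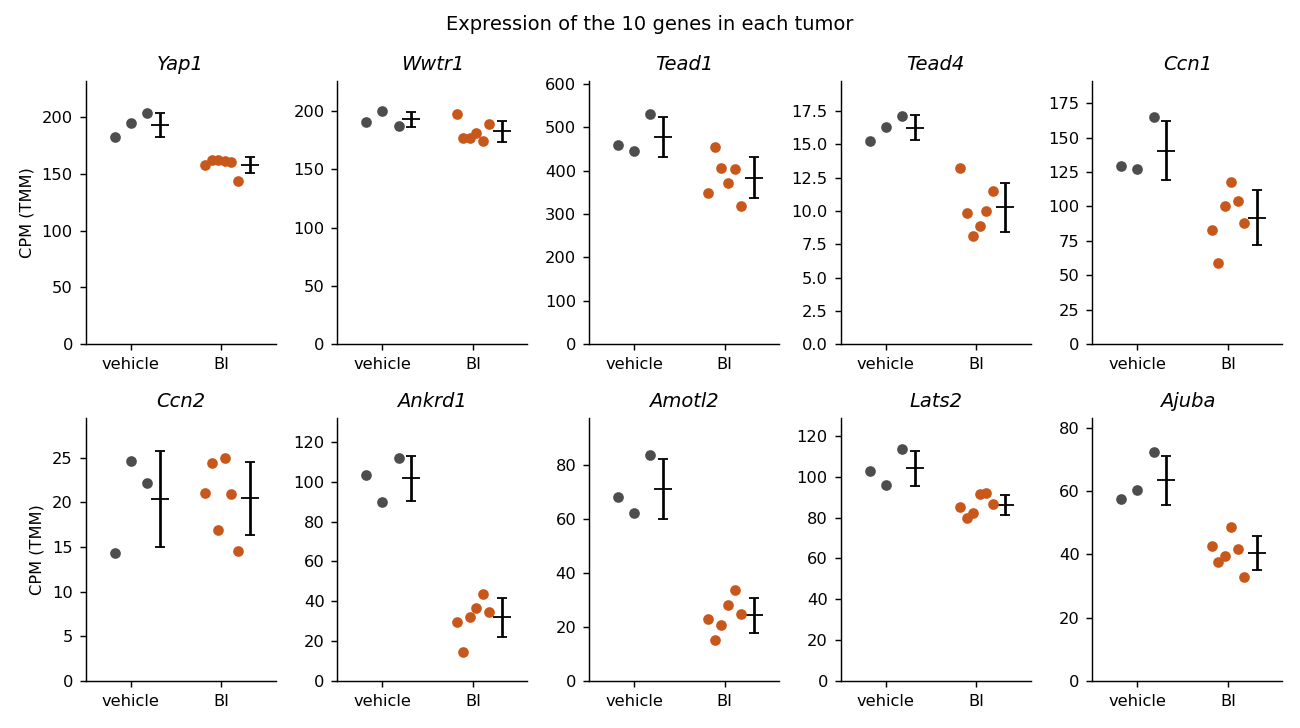
Each panel plots 1 gene, with TMM-normalized CPM on a linear axis from 0, 1 point per tumor, and bars for the mean and SD of the 3 vehicle-treated and 6 BI-treated tumors. The groups are apart in 7 panels and overlap for Wwtr1, Tead1 and Ccn2, and the widest gaps are those of Ankrd1 and Amotl2.

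Per kilobase, the 10 genes fell into high and low levels. In the 3 controls Ccn1 stood at 69.3 ± 10.6 RPKM, Ankrd1 at 57.7 ± 6.4, Tead1 at 48.0 ± 4.7, Yap1 at 46.4 ± 2.5 and Wwtr1 at 40.3 ± 1.4 RPKM (SD), and neighbours in this order differed by less than the sum of their SDs, apart from Yap1 and Wwtr1. Lats2, Ajuba and Amotl2 followed at 17.01 to 18.74 RPKM, within their SDs of each other, and Ccn2 at 8.49 ± 2.24 and Tead4 at 5.28 ± 0.31 RPKM were lowest. In the 6 treated tumors Ankrd1, at 18.04 ± 5.46 RPKM, lay beside Lats2 at 15.5 ± 0.9 RPKM rather than among the coactivators, and Amotl2, at 5.79 ± 1.52 RPKM, had a lower mean than Ccn2 at 8.52 ± 1.71 RPKM.

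Yap1 (chr9:7931999-8004596, mm9) encodes the coactivator YAP. Its level was 182, 195 and 203 CPM in the vehicle-treated tumors and ran from 144 through a median of 161 to 162 CPM in the BI-treated tumors. Every treated tumor was thus below the lowest control, though by a modest step, and 5 of the 6 lay between 158 and 162 CPM. The fitted change was -0.29 (SE 0.06, adjusted p = 0.0029, edgeR quasi-likelihood test). Reads of Yap1 exons overlap a transcript on the other strand, and whether strand was used in counting is not given in the sources used here.

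Wwtr1 (chr3:57259571-57379832) encodes TAZ, the paralog of YAP. It stood at 191, 200 and 187 CPM with vehicle and between 174 and 198 CPM, median 179, with BI. The groups overlapped: 4 treated tumors were below all controls, while BI replicate 4 was near the highest control. The fitted change was -0.08 (SE 0.06, adjusted p = 0.32 by edgeR). Per kilobase, Wwtr1 was at a lower mean level than Yap1 with vehicle, as given above, and with BI the means were 38.1 ± 1.9 RPKM for Wwtr1 and 37.9 ± 1.7 RPKM for Yap1 (SD, n = 6).

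The ratio of Wwtr1 to Yap1 in counts per kilobase was 0.912, 0.896 and 0.804 in the controls and 0.945 to 1.14, median 0.965, in the treated tumors. All 6 treated tumors were above all 3 controls. The log2 ratio was higher by 0.21, with an exact permutation p of 0.0238, the smallest that the 84 divisions of 9 tumors allow two-sided, and of 0.0714 after adjustment over the 3 ratios examined, so that it missed the threshold once adjusted.

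Tead1 (chr7:119822832-120050319) encodes a TEAD factor expressed in many tissues. It was at 459, 445 and 531 CPM with vehicle and at 319 to 454 CPM, median 388, with BI. In 5 treated tumors Tead1 was below all controls, and BI replicate 5 lay between the controls. The change of -0.32 (SE 0.10, adjusted p = 0.038, edgeR) was close to the threshold. It did not pass without vehicle replicate 1 or 3 or without BI replicate 4, 7, 8 or 9 (adjusted p = 0.0531 to 0.18).

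Tead4 (chr6:128174306-128250841), a TEAD factor with a known role in the trophectoderm of the early embryo, was much scarcer per kilobase than Tead1. In CPM it was at 15.3, 16.3 and 17.2 with vehicle and at 8.11 to 13.2, median 9.92, with BI. All 6 treated tumors fell below the controls, BI replicate 4 least and BI replicate 6 most. The change was -0.66 (SE 0.13, adjusted p = 0.0037, edgeR), which left 63.1% of the vehicle level.

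The fall of Tead4 was not shown to differ from that of Tead1. Their ratio per kilobase was 0.105 to 0.119 with vehicle and 0.0646 to 0.123 with BI. In 4 treated tumors it was at or below 0.0801, but BI replicates 4 and 9, at 0.123 and 0.117, were among or above the controls. The difference of the log2 ratio was -0.36 (exact permutation p = 0.214, also 0.214 adjusted over the 3 ratios). The other members of the factor family, Tead2 and Tead3, had log2 fold changes of -0.13 and -0.24 with adjusted p of 0.24 and 0.0696 by edgeR.

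Ccn1 (Cyr61, chr3:145309935-145312949) and Ccn2 (Ctgf, chr10:24315248-24318489) encode secreted matricellular proteins that bind integrins, and both are standard readouts of YAP and TAZ. Ccn1 was at 129, 127 and 165 CPM with vehicle and at 58.8 to 117 CPM, median 94.3, with BI. The groups did not overlap, but the gap between the highest treated and the lowest control tumor was narrow and BI replicate 5 stood lowest. The fold change of -0.61 (SE 0.17, adjusted p = 0.018, edgeR) rests in part on vehicle replicate 3, the highest control: without it the change was -0.48 with an adjusted p of 0.10.

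Ccn2 was at 14.4, 24.7 and 22.2 CPM with vehicle and at 14.6 to 25.0 CPM, median 21.0, with BI. The groups overlapped over almost their whole range. The fitted change was 0.01 (SE 0.19, adjusted p = 0.99, edgeR), and its sign turned when single tumors were left out (-0.19 to 0.16). Vehicle replicate 1 had the lowest Ccn2 level of all 9 tumors. Reads of Ccn2 exons overlap a non-coding gene on the other strand.

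Per kilobase, Ccn1 exceeded Ccn2 in every tumor. The ratio was 10.6, 6.11 and 8.83 with vehicle and 2.86 to 7.17, median 5.72, with BI, so that the groups overlapped through vehicle replicate 2. The log2 ratio was lower by 0.65 (exact permutation p = 0.0714, adjusted 0.107), a difference not shown at this number of tumors. Of the rest of the CCN family, 3 genes were tested and 1 was called higher, against 14.6% of all genes tested. Ccn5, a member that lacks the C-terminal domain of CCN1 and CCN2, rose by 1.25 (SE 0.28, adjusted p = 0.0067, edgeR) from a mean of 12.7 to 30.3 CPM. Its groups overlapped through BI replicate 4, at 13.6 CPM against 9.17 to 15.8 CPM with vehicle. Ccn3 and Ccn4 had changes of 0.45 and -0.34 with adjusted p of 0.32 and 0.18 by edgeR.

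**Figure D2:**
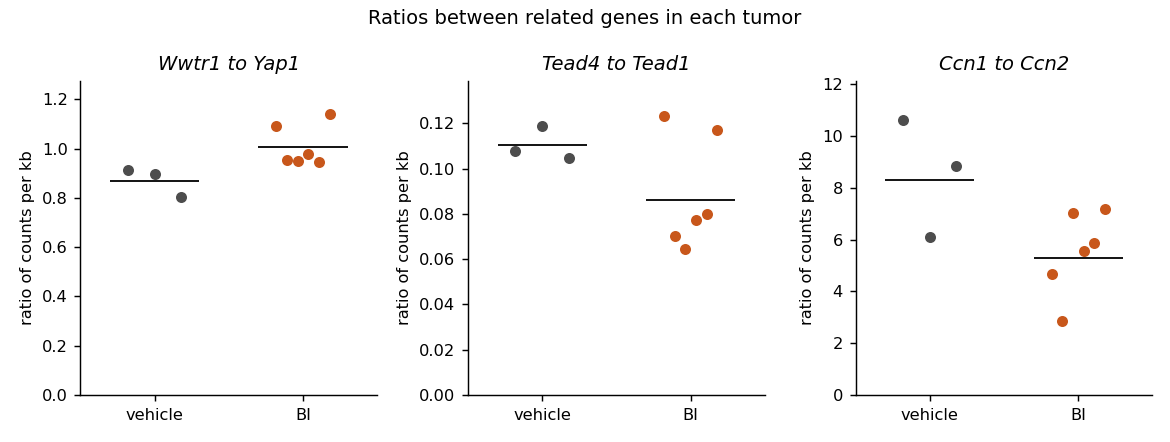
Each panel plots 1 ratio of counts per kilobase between related genes on a linear axis from 0, 1 point per tumor, and the line is the geometric mean of the group. The ratio of Wwtr1 to Yap1 is at least 0.945 in all 6 BI-treated tumors and at most 0.912 in all 3 vehicle-treated tumors, whereas the other ratios overlap between the groups.

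Ankrd1 (chr19:36186455-36194334) encodes an ankyrin repeat protein that is induced by stretch and injury in muscle and is a strongly responding YAP and TEAD target in many cell types. It was at 104, 89.7 and 112 CPM with vehicle and at 29.6, 14.7, 32.2, 36.7, 43.4 and 34.5 CPM in BI replicates 4 to 9. The highest treated tumor, BI replicate 8, was far below the lowest control, and BI replicate 5 was lowest of all. Ankrd1 fell by 1.68 on the log2 scale (SE 0.22, adjusted p = 0.000254, edgeR quasi-likelihood test), which is 3.2-fold lower, and ranked 22 from the lowest fold change among the 13966 genes tested. Single raw counts ran from 2006 to 3805 with vehicle and from 281 to 815 with BI, so that counting error was small beside the spread between tumors.

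As Ankrd1 is also made by muscle, markers of skeletal muscle were set beside it. Their summed level was 20.0 to 37.3 CPM with vehicle and 18.5 to 28.6 CPM with BI. Of the 7 markers tested, Tnni2, a troponin of fast muscle, fell by 0.77 (adjusted p = 0.0038, edgeR), and 0 rose. The share that fell, 14.3%, was near the 14.1% of all genes tested. The part of muscle in the Ankrd1 change was not tested.

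Amotl2 (chr9:102619002-102635748) encodes an angiomotin that binds YAP and keeps it out of the nucleus, and it is itself a YAP target. It was at 68.0, 62.1 and 83.7 CPM with vehicle and at 22.8, 15.2, 20.9, 28.1, 33.9 and 24.8 CPM in BI replicates 4 to 9. As for Ankrd1, BI replicate 5 was lowest, BI replicate 8 was highest and the groups were far apart. Amotl2 fell by 1.56 (SE 0.18, adjusted p = 0.000122, edgeR), which left 34.0% of the vehicle level, and it ranked 29 from the lowest fold change. The related angiomotin Amot fell by 0.55 (SE 0.08, adjusted p = 0.000445), whereas Amotl1 had a change of -0.24 that was not called (adjusted p = 0.15).

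Lats2 (chr14:58260914-58377225) encodes the kinase that phosphorylates YAP and TAZ and is induced by them. It was at 103, 96.0 and 113 CPM with vehicle and at 79.9 to 91.8 CPM, median 85.8, with BI. The groups were apart by a small margin. The change was -0.27 (SE 0.07, adjusted p = 0.0099, edgeR), and without vehicle replicate 3 it was -0.21 with an adjusted p of 0.0656. Exons of Lats2 and Xpo4 overlap on the same strand in the annotation, so that some reads could belong to either gene. The paralog Lats1 had a change of -0.15 (adjusted p = 0.0653) and was not called.

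Ajuba (Jub, chr14:55186309-55196253) encodes a LIM domain protein that binds LATS kinases at cell junctions and limits their action on YAP. It was at 57.7, 60.3 and 72.3 CPM with vehicle and at 32.8 to 48.6 CPM, median 40.6, with BI. All treated tumors were below all controls, BI replicate 9 lowest and BI replicate 7 highest. The change was -0.65 (SE 0.11, adjusted p = 0.0011, edgeR), which left 63.8% of the vehicle level. Among the related LIM proteins, Limd1 had a change of 0.14 and Wtip of -0.11, and neither was called (adjusted p = 0.0851 and 0.76).

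**Figure D3:**
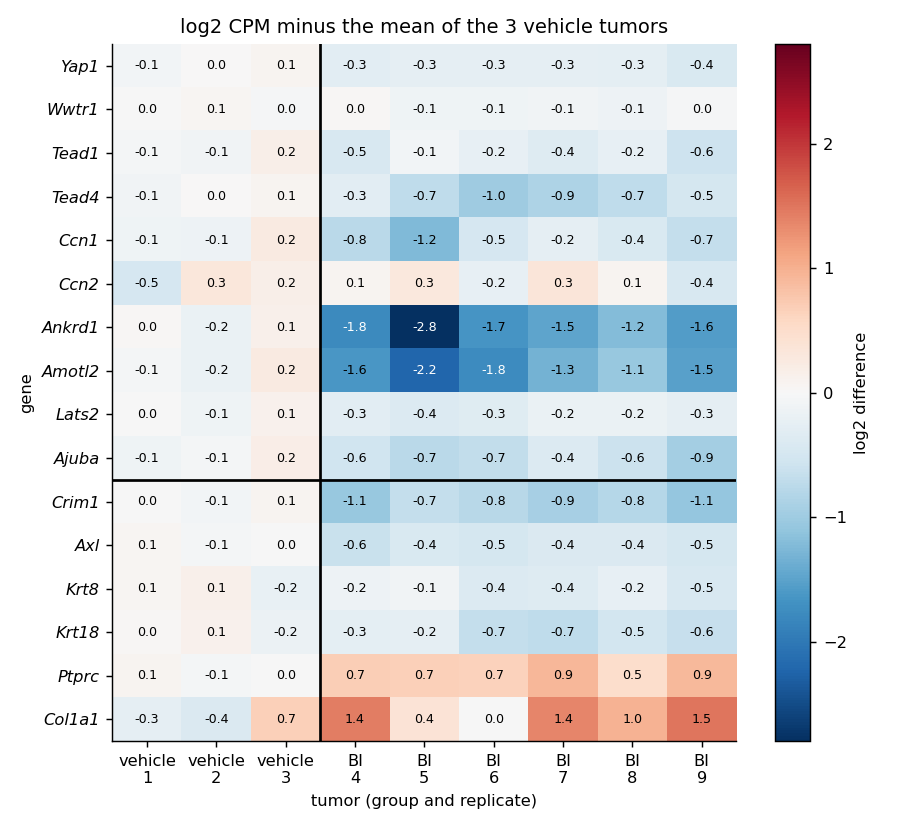
The heat map gives, for each gene (rows) and tumor (columns), the log2 CPM minus the mean of the 3 vehicle-treated tumors, for the 10 genes above the line and for 6 genes of other lists below it. Ankrd1 and Amotl2 are lower in all 6 BI-treated tumors, most in BI replicate 5 at -2.8 and -2.2, while Ccn2 has both signs in each group.

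Among the 6 BI-treated tumors, some targets varied together. Pearson's r and Spearman's rho were computed for the 15 pairs of the 6 targets over n = 6 tumors, with exact permutation p over all 720 pairings and adjustment over the 15 pairs. Amotl2 and Lats2 gave r = 0.95 and rho = 1.00 (exact p = 0.00278 and adjusted p = 0.0417 for both), and r was 0.995 without the 2 tumors farthest from the median of Amotl2. No other pair passed the adjusted threshold.

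Ankrd1 and Amotl2 gave r = 0.93 (rho = 0.94, exact p = 0.00833, adjusted 0.0625) and r = 0.77 without the 2 farthest tumors. For Ankrd1 and Lats2, r was 0.82 (exact p = 0.0139, adjusted 0.0695), and 0.75 without the 2 tumors farthest from the median of Ankrd1. For Ccn1 and Ankrd1, r was 0.91 (exact p = 0.0444, adjusted 0.167), and 0.72 without the 2 tumors farthest from the median of Ccn1. Without the same 2 tumors, r went from 0.83 to 0.45 for Ccn1 and Amotl2 and from 0.78 to 0.32 for Ccn1 and Lats2. Ccn2 had r of -0.13 with Ccn1, -0.35 with Ankrd1, -0.10 with Amotl2 and 0.11 with Lats2. Its highest r was 0.73, with Ajuba (exact p = 0.103, adjusted 0.22), and 0.17 without the 2 tumors farthest from the median of Ccn2. For Ajuba, r was 0.51 with Ccn1, 0.47 with Lats2, 0.37 with Amotl2 and 0.27 with Ankrd1. Levels in a tumor share a library and its composition, so these values describe the 6 tumors.

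A published signature of YAP targets holds 17 further genes. Of these 16 were tested, Foxf2 being too low, and 7 fell, 0 rose and 9 were not called, beside 14.1% of all genes tested that fell and 14.6% that rose, with a median log2 fold change of -0.26. Crim1, a transmembrane protein that binds bone morphogenetic proteins, fell by 0.88 (SE 0.09, adjusted p = 4.8e-05, edgeR) from 168 ± 9 to 91.4 ± 10.6 CPM (SD). Axl, a receptor tyrosine kinase, fell by 0.47 (SE 0.07, adjusted p = 0.000374) from 1053 ± 41 to 757.5 ± 43.5 CPM.

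The 5 other signature genes that fell were Arhgef17 (-0.46) and Asap1 (-0.38), regulators of small GTPases, the kinase Nuak2 (-0.41), the phosphatase Ptpn14 (-0.36) and the exchange factor Dock5 (-0.35). Of the 16 signature genes tested, every treated tumor was below every control in 7, against 14% of all genes tested. These were the 7 genes called lower. The 9 genes not called lay between -0.32 (F3) and 0.44 (Rbms3). At an unadjusted p of 0.0486, Gadd45a, a stress response gene, would be the 1 gene with a higher level (0.38, adjusted p = 0.12).

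Of the 25 other genes of the Hippo pathway 6 were lower (24%, against 14.1% of all genes tested), 4 higher (16%, close to the 14.6% of all genes) and 15 not called, with a median of -0.10. Wwc1, which encodes the scaffold KIBRA and is described as a YAP target, fell most, by 1.28 (SE 0.16, adjusted p = 0.000181, edgeR), from 19.2, 13.4 and 15.4 CPM with vehicle to between 4.68 and 8.11 CPM with BI, with no overlap. Its relative Wwc2 fell by 0.45 and the angiomotin Amot, given above, by 0.55. Ptpn14, which is also in the signature list, fell by 0.36, the scaffold Frmd6 by 0.31 and the kinase Map4k4 by 0.26.

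The 4 that rose were the atypical cadherins Fat4 (0.74, from 2.94 to 4.93 CPM) and Dchs1 (0.59, from 6.90 to 10.4 CPM) and the kinases Taok3 (0.42) and Stk4, the gene of MST1 (0.17). Among these the groups were apart only for Taok3 and overlapped for Fat4, Dchs1 and Stk4. When single tumors were left out, between 1 and 5 genes were called higher and between 6 and 7 lower. The core components Sav1, Mob1b, Lats1 and Nf2 and the kinases Stk3, Taok1 and Taok2 were not called.

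**Figure D4:**
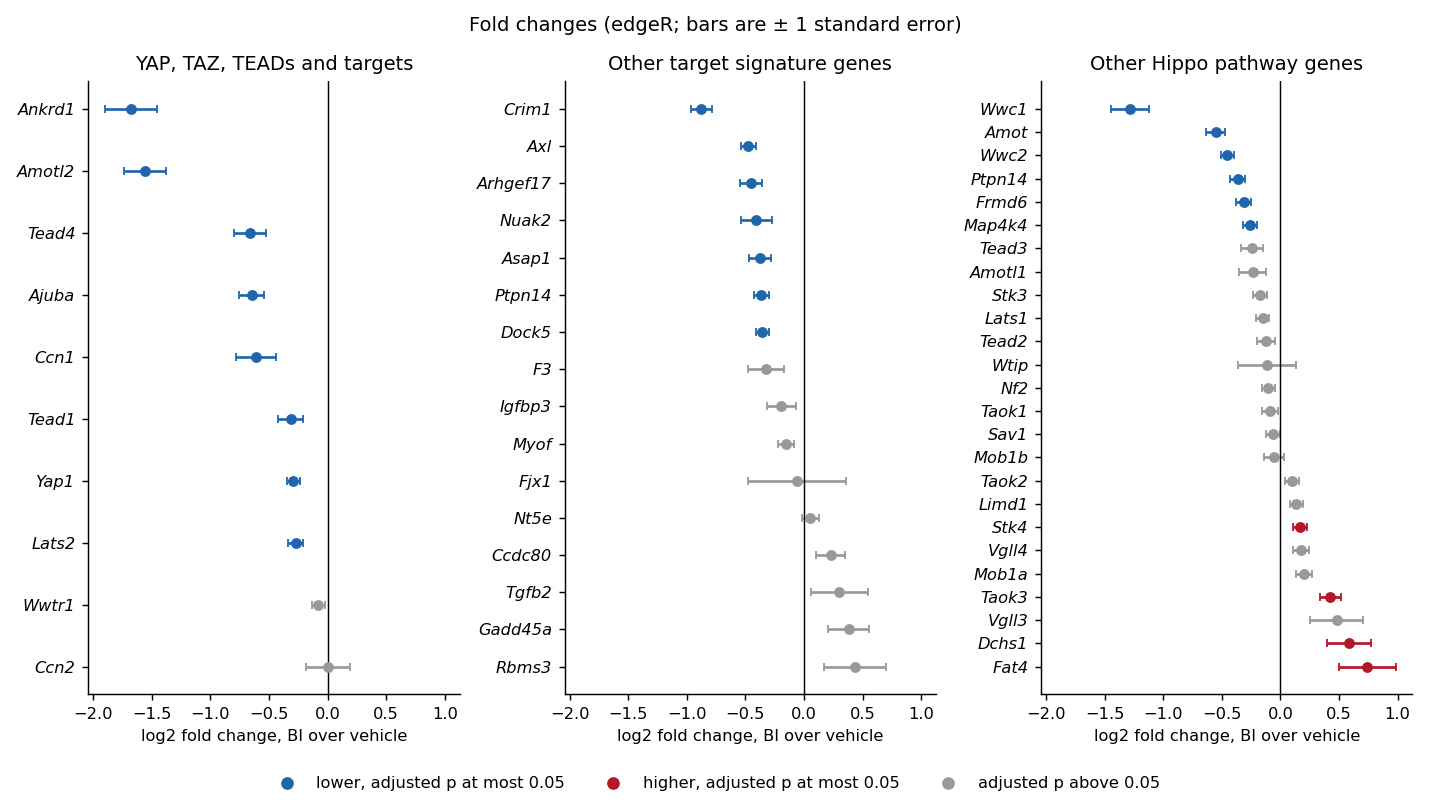
Points are log2 fold changes of BI over vehicle from edgeR and bars are 1 standard error, for the 10 genes (left), the 16 other signature genes tested (middle) and the 25 other Hippo pathway genes (right), colored by call. Ankrd1 and Amotl2 lie near -1.68 and -1.56, and Wwc1 at -1.28 is the lowest of the other panels.

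Lists for transcription factors that share targets or inputs with YAP were set beside these. Of 13 targets of serum response factor and its MRTF coactivators, 4 fell (30.8%, against 14.1% of all genes tested). The number that rose was 2 (15.4%, close to the 14.6% of all genes), and the median was -0.09. Those that fell were the actin-linked genes Tpm1 (-0.71), Cald1 (-0.53), Vcl (-0.48) and Cnn2 (-0.34), and those that rose were Myl9 (0.74) and Acta2 (0.27). Of 12 immediate early genes 2 fell (16.7%, near the 14.1% of all genes), Fosb (-0.50) and Egr1 (-0.34), 0 rose, and the median was -0.03. These lists are descriptions, and their difference from the YAP targets was not tested.

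Markers of other cell types moved in the same tumors, in which 14.1% of all genes tested fell and 14.6% rose. The 6 leukocyte markers that rose were Ptprc (0.73), common to leukocytes, Cd3e of T cells (1.14), and the myeloid genes Csf1r (0.91), Adgre1 (0.93), Cd68 (0.62) and Itgam (0.53), while S100a8 of neutrophils fell (-1.26). Of 8 endothelial markers Cdh5, Kdr and Tie1 rose by 0.38 to 0.49 while Pecam1 had 0.34 and was not called, and of 9 fibroblast markers Col1a2 rose by 0.92 while Col1a1 (0.96) and Col3a1 (0.89) were not called, and all 9 were fitted above 0. Mural cell and adipocyte markers had 0 calls among 6 and 5 genes (edgeR, adjusted p of at least 0.0737), with log2 fold changes of 0.15 for Notch3 of mural cells and 1.18 for Fabp4 of adipocytes. At an unadjusted p and the fold limit of the study, 4 fibroblast markers, 1 endothelial marker, 1 adipocyte marker (Fabp4) and 0 mural markers were higher. By these cutoffs 9.59% of all genes tested were higher. Of 8 proliferation markers 5 fell, Top2a (-0.62), Bub1 (-0.57), Aurka (-0.53), Ccnb1 (-0.51) and Cdk1 (-0.45), and 0 rose, with a median of -0.49, close to the -0.46 of the 10 genes. The part of these shifts in the results was not tested.

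Each gene was also expressed relative to the mean log2 level of Krt8 and Krt18, a scale chosen after the data had been seen. These are the 2 epithelial markers called lower. Of the others, which were not called, Epcam, Krt7, Cdh1 and Cldn7 were fitted above 0 and Krt14 and Cldn4 below 0. The mean of Krt8 and Krt18 was itself lower by 0.39 with BI (exact permutation p = 0.0476, 5 of 6 treated tumors below all controls), and both were lowest, among the controls, in vehicle replicate 3. On that scale Ankrd1 was lower by 1.35 and Amotl2 by 1.19, each in 6 of 6 treated tumors against all controls (exact permutation p = 0.0238, the smallest possible). Tead4 (-0.28), Ajuba (-0.26) and Ccn1 (-0.24) overlapped between groups, with exact p of 0.143, 0.214 and 0.548.

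The scale moves every gene upward by about the same 0.39, so that the sign of a gene on it follows from the size of its change on the scale of all counts. Yap1, Tead1 and Lats2 had differences of 0.10, 0.07 and 0.12 on this scale (exact permutation p = 0.405, 0.69 and 0.5). Wwtr1 was higher by 0.31 (exact p = 0.0476) and Ccn2 by 0.41 (exact p = 0.167). These p-values are not adjusted over the 10 genes.

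**Figure D5:**
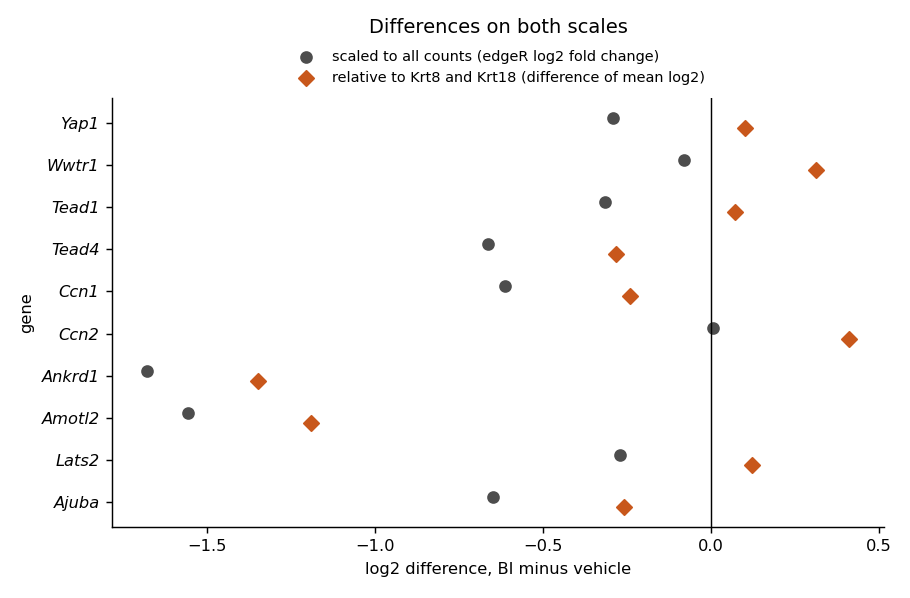
For each gene, the circle is the log2 fold change on the scale of all counts and the diamond is the difference of mean log2 levels relative to Krt8 and Krt18, both BI minus vehicle on a log2 axis. Every diamond lies to the right of its circle, by about the fall of the keratin mean, and those of Ankrd1 and Amotl2, at -1.35 and -1.19, stay well below 0.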

How the data were processed

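Snap-frozen tumor pieces were used for poly(A) RNA sequencing with a stranded kit and paired reads. The authors aligned reads to mm9 with STAR, kept unique alignments, counted with QuasR the reads starting in an exon of each RefSeq gene, and deposited raw counts for 18755 genes with gene lengths. Symbols (18700 genes) came from RefSeq by Entrez identifier, positions from GENCODE on mm9 and promoter windows from RefSeq on GRCm38. Promoters of Ccn2, Tead1 and Tead4 were not analysed here.

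The quasi-likelihood F test of edgeR (version 4.0.16, R version 4.3.3) compared BI with vehicle on TMM-scaled counts, with no covariates, for the 13966 genes that filterByExpr kept (smallest count 10, smallest total 15), with Benjamini-Hochberg adjustment over them. The script was first tested on simulated data. Ratios and keratin-relative levels used exact permutation of the 9 tumors. P-values of group differences set the difference against the spread between tumors. Those of correlations come from pairings of the 6 BI-treated tumors only. Alternatives were other normalizations and filters, DESeq2 1.42.0, limma-voom 3.58.1, the study's cutoffs and leaving out each tumor. The 10 genes and all lists were chosen with earlier results of these data known. All 10 genes are named, and of each other list the called genes, at most 6 per direction, and for cell types the most abundant gene; further genes named were chosen after their values were seen.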

Additional observations from a re-analysis of the deposited data

Results flagged for a closer look

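Yap1 in BI replicate 9 stood apart from the other treated tumors, at 144 CPM against 158 to 162 CPM in the other 5. Its gap to the nearest tumor was 0.769 of the range of the group, above Dixon's 95% limit for 6 samples. It was the only such value among the 10 genes and 3 ratios looked at, and chance marks about 1 group in 20.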

How the results depend on the processing

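Ankrd1 and Amotl2 kept their direction and call under the other normalizations, filters and tests and without each tumor, with adjusted p of at most 0.0025 and 0.00143. Of the 10 genes, between 5 and 8 were called lower when single tumors were left out (5 without vehicle replicate 3, when Tead1, Ccn1 and Lats2 were lost), 5 by the cutoffs of the study and 2 (Ankrd1 and Amotl2) relative to Krt8 and Krt18, the scale added after seeing the data, where the count rests on an unadjusted exact p of 0.0238. That scale moves every gene up by about 0.39, which by construction turns the sign of small falls: Yap1 (0.10), Wwtr1 (0.31), Tead1 (0.0707) and Lats2 (0.12). Ccn2, not called throughout, ran from -0.19 to 0.16 when single tumors were left out. Hippo pathway genes called higher numbered 2 with limma-voom, 2 by the study's cutoffs and 1 to 5 when single tumors were left out, and those called lower numbered 1 by the study's cutoffs. Signature genes called lower numbered 1 by those cutoffs, and those called higher 0 to 1 when single tumors were left out. The log2 ratio of Wwtr1 to Yap1 was 0.16 to 0.25 when single tumors were left out, and the exact p without a vehicle-treated tumor was 0.0714, the smallest then possible. Why the other counts moved was not tested. No paired analysis was possible because the groups share no replicate numbers. With 3 controls the exact p cannot go below 0.0238, and no comparison here separates RNA per cell from cell numbers.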
